A study of Mus musculus with 18 samples.

Results

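The interaction of genotype and nerve injury was measured across all genes of the mouse dorsal root ganglion as the difference between 2 injury responses. The first response was that of mice without importin alpha3 (KO), 7 d after spared nerve injury (SNI) against naive KO mice. The second was the same difference in wild-type (WT) mice. A positive interaction means that the response was more positive in KO, and a negative one that it was more negative in KO. The comparison used 14 of the 18 libraries of the study, namely 4 naive WT, 3 WT at 7 d, 4 naive KO and 3 KO at 7 d, and 19010 genes were tested.

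The study set dorsal root ganglia of mice labelled as wild type against those of mice labelled as imp{alpha}3 knockout, without injury or 7 d or 2.5 months after SNI, an operation that cuts part of the sciatic nerve and leaves a branch intact. The labels used here do not say how the knockout was made, the age or strain of the mice, or whether each library came from its own mouse, and no group was operated on without nerve injury. P-values therefore measure the spread between these libraries, which may be technical, and a difference between 7 d and naive may include effects of surgery. Ganglia are bulk tissue, so fewer cells of a type and less RNA per cell cannot be told apart.

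Importin alpha proteins bind the nuclear localization signal of a cargo protein and, with importin beta, carry it through the nuclear pore. Importin alpha3, the product of Kpna4, is known to carry cFOS, a subunit of the transcription factor AP-1, into the nucleus of sensory neurons. AP-1 is a dimer of FOS, JUN and related proteins that binds the sequence TGANTCA, and it is among the factors that nerve injury switches on. The design text of the study names the importin alpha3 and cFOS pathway, and the interaction asks which injury responses differ when importin alpha3 is missing.

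Naive libraries held 18634506 to 21585680 counts and 7 d libraries 12565448 to 14157742, so depth differed with injury. Kpna4 stood at 1.83 to 2.87 CPM, reads scaled to a common library size, in naive KO and 2.42 to 3.57 CPM in KO at 7 d, against 108 to 136 CPM in naive WT and 116 to 125 CPM in WT at 7 d. All 14 sensory neuron markers were detected in each group, with a summed level of 13408 to 28718 CPM. Libraries ko_39, ko_40 and ko_422_7d stood apart. The naive KO library ko_39 held more RNA of injury genes than the other naive KO libraries, such as 112 CPM of Sprr1a against at most 12.3 CPM. In naive ko_40, mitochondrial genes took 12.3% of counts, against 3.43% to 7.66% in the other 13 libraries, and the sensory neuron markers were at their lowest, 13408 CPM. The log2 level of a gene relative to its mean over the libraries had a slope of -0.687 for each 10-fold increase in exon length in ko_422_7d, against -0.0632 to 0.245 in the other 13. Values without some of them stand beside several of the results.

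The gene with the strongest evidence of an interaction was Tpm3-rs7, annotated as a relative of tropomyosin 3. It lies on chromosome 14, from 113314608 to 113316754 on the plus strand of GRCm38. With its 1 exon it is a near copy of Tpm3, the gene of a tropomyosin that binds actin filaments, which lies on chromosome 3 from 90072649 to 90100902. Over 2103 aligned bases Tpm3-rs7 was 99.33% identical to the closest annotated Tpm3 transcript, and 3 of its 744 coding bases differed. The stretch of 90 coding bases that holds all 3 is shown because a read that covers a differing base can be told from reads of the other gene. Capitals mark the differing bases.
Tpm3-rs7: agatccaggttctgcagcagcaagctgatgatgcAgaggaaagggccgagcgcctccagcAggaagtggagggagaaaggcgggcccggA
Tpm3: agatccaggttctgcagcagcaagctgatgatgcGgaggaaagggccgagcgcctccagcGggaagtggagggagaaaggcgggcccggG

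The stretches lie at chr14:113314713-113314802 and chr3:90079769-90079858, both on the plus strand. Of the 2098 runs of 50 bases in Tpm3-rs7, 69.45% also occur in a Tpm3 transcript. The run length of 50 was chosen without regard to the read length of the libraries, so the share of reads that fit both genes was not measured.

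Tpm3-rs7 stood at 12.5, 12.5, 11.02 and 11.1 CPM in naive WT and at 0.441, 0.356 and 0.924 CPM in WT at 7 d. In KO it stood at 0.567, 0.457, 0.478 and 0.60 CPM in naive mice and at 0.865, 1.03 and 1.17 CPM at 7 d. Naive WT was thus high and the other groups were low, and no naive WT library overlapped any other group. The WT response was -4.35 and the KO response 0.95 on the log2 scale, which gave an interaction of 5.30 ± 0.40 (SE, 95% interval 4.45 to 6.15, adjusted p = 3.29e-06 by edgeR's quasi-likelihood test). At 2.5 months the lone WT library held 0.907 CPM and the 3 KO libraries 0.520 to 0.852 CPM.

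Reads of Tpm3 moved against those of its near copy in WT. Tpm3 stood at 34.2, 36.8, 30.8 and 28.8 CPM in naive WT and at 52.7, 46.2 and 59.6 CPM in WT at 7 d. In KO the values were 40.1, 45.7, 48.2 and 51.3 CPM in naive mice and 57.1, 68.3 and 57.2 CPM at 7 d. The 7 d libraries lay above the naive ones within each genotype, and naive WT was the lowest group. The interaction of Tpm3 was -0.30 ± 0.17 (SE) and was not called (adjusted p = 0.948 by edgeR). With the counts of both genes summed into 1, the mean was 44.4 ± 4.33 CPM in naive WT (SD, n = 4) and 53.4 ± 7.00 CPM in WT at 7 d (SD, n = 3). The sum was 46.9 ± 4.75 CPM in naive KO (SD, n = 4) and 61.9 ± 6.46 CPM in KO at 7 d (SD, n = 3). The interaction of the sum was 0.14 ± 0.17 (SE, adjusted p = 0.948 by edgeR). Since Tpm3 was the more abundant gene, the sum is not a test of Tpm3-rs7 alone. How the deposited counts split reads between them was not tested. Of the other tropomyosin genes, Tpm1 had an interaction of 0.10 ± 0.18, Tpm2 of -0.62 ± 0.57 and Tpm4 of 0.32 ± 0.25 (SE), and none was called.

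The other called gene was 1500004A13Rik, a processed transcript annotated on chromosome 3, from 88782943 to 88832547 on the minus strand, for which no function is given here. It stood at 42.1, 36.7, 36.2 and 41.0 CPM in naive WT and at 71.4, 80.0 and 77.1 CPM in WT at 7 d. In KO it stood at 72.2, 77.5, 85.7 and 71.0 CPM in naive mice and at 66.7, 63.4 and 70.4 CPM at 7 d. Naive WT again stood alone, below all other libraries, while the other 3 groups lay between 63.4 and 85.7 CPM. The WT response was 0.97 and the KO response -0.20, and the interaction was -1.16 ± 0.15 (SE, 95% interval -1.48 to -0.84, adjusted p = 0.0058 by edgeR). At 2.5 months it held 80.8 CPM in the lone WT library and 62.2 to 80.9 CPM in KO. The call was lost without ko_39, ko_40 and ko_422_7d, at -1.03 (adjusted p = 0.0996), and with a correction for gene length, at -1.003 (adjusted p = 0.106), while edgeR's adjusted p was 0.0108 to 0.0343 with any single library left out. Kpna4, Tpm3 and 1500004A13Rik all lie on chromosome 3. A window of 30 Mb on either side of Kpna4 held 464 tested genes. For 21 of these (4.53%) the unadjusted p of the interaction was under 0.05, against 3.68% of genes elsewhere.

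**Figure D1:**
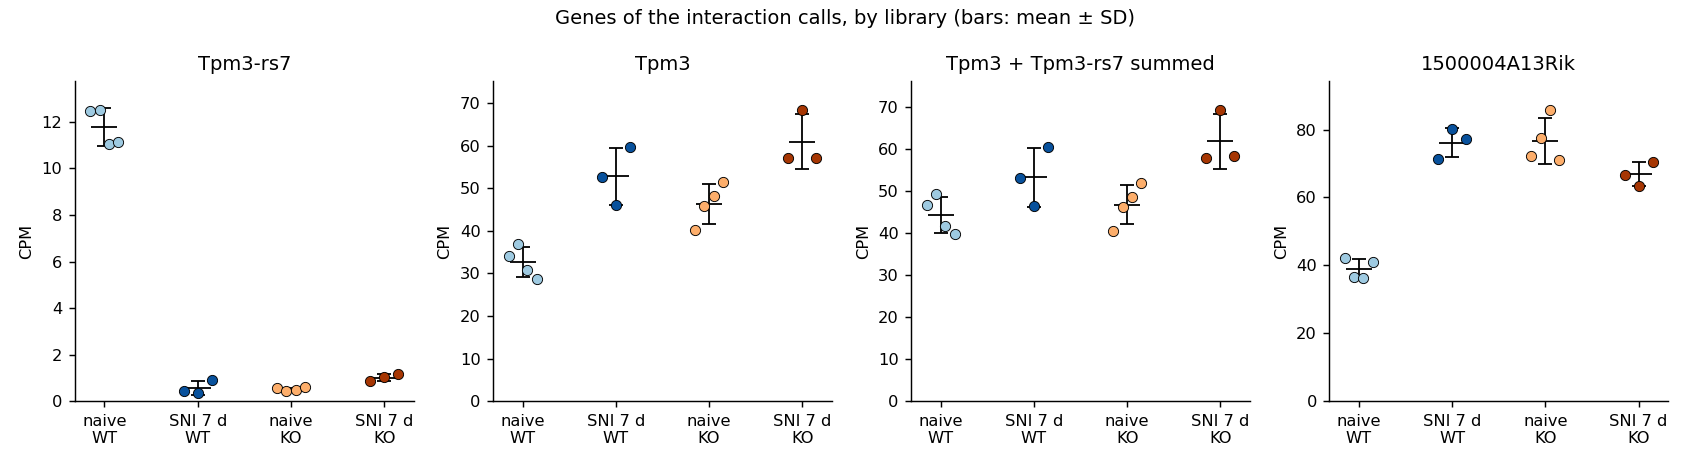
Level of Tpm3-rs7, Tpm3, the sum of both and 1500004A13Rik in CPM (vertical axis) in each of the 14 libraries, by group; points are libraries and bars the mean ± SD. Naive WT stands apart for Tpm3-rs7, at 11.02 to 12.5 CPM, and for 1500004A13Rik, at 36.2 to 42.1 CPM, while the summed tropomyosin level of naive WT overlaps that of naive KO.

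Tpm3-rs7 and 1500004A13Rik were the only genes called for the interaction by edgeR, 2 of 19010 or 0.0105% of the genes tested, with 1 gene (0.00526%) in each direction. Without adjustment, p was under 0.05 for 704 genes (3.7%), and positive ones made up 1.99% and negative ones 1.71% of all genes tested. DESeq2 called 2 genes and limma-voom 2. Across both genotypes the injury response was large. The mean of both responses was called for 4013 genes (21.1%), 2053 higher (10.8%) and 1960 lower (10.3%) at 7 d. Between genotypes, 5 genes (0.0263%) were called in naive mice, 2 higher (0.0105%) and 3 lower (0.0158%) in KO, and these included Kpna4, Tpm3-rs7 and 1500004A13Rik. At 7 d the only gene called between genotypes was Kpna4 (0.00526%), at -5.38. Tpm3-rs7 and 1500004A13Rik differed by 0.84 and -0.19 at 7 d and were not called there, against -4.46 and 0.97 in naive mice. Apart from Tpm3-rs7, in the list of tropomyosins, no member of the gene lists was called for the interaction.

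The libraries limited what an interaction could show. The median SE of the interaction over all genes was 0.307 on the log2 scale. The 95% interval lay within a 2-fold change in either direction for 10265 genes (54.0%), and for 2365 of the 4013 genes called for the mean response (58.9%). For the rest, a difference of 2-fold between the responses was within the interval, so a gene that was not called is not shown to respond alike in both genotypes.

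**Figure D2:**
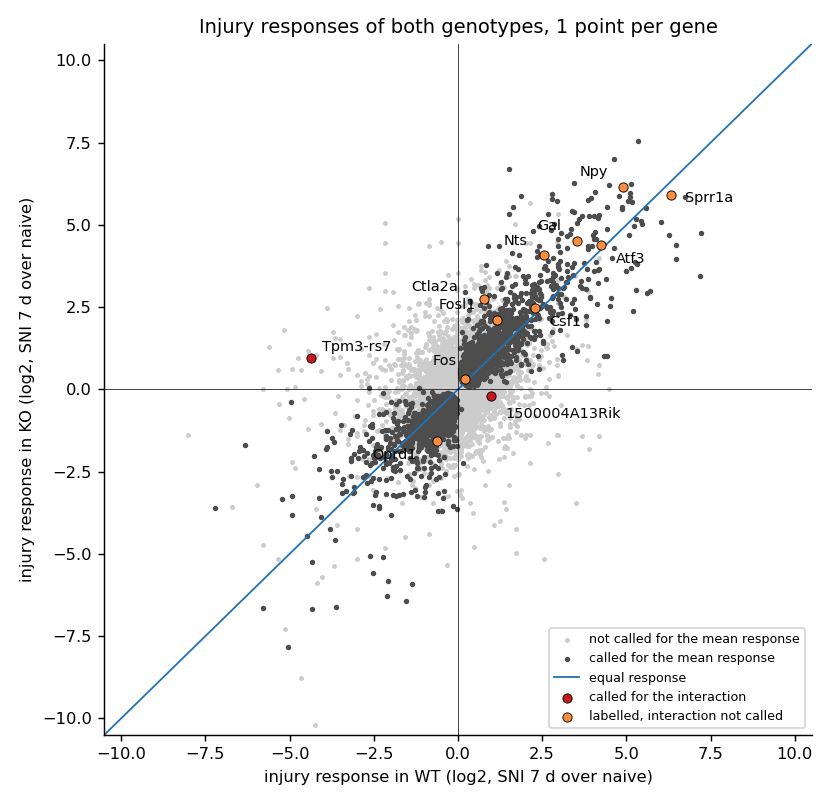
Injury response of each of 19010 genes in WT (horizontal axis) and in KO (vertical axis), as the log2 change from naive to 7 d; dark points were called for the mean response and the diagonal marks equal responses. Tpm3-rs7 lies far to the left of the diagonal and 1500004A13Rik below it, while known injury genes such as Atf3, Gal and Npy lie in the upper right, Atf3 near the diagonal and Gal and Npy above it.

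Beyond the called genes, the genes with the smallest unadjusted p were described, none of which was called (adjusted p = 0.948 by edgeR for each). Among those with a positive interaction, Ctla2a, a gene of the cathepsin inhibitor family, stood at 1.49 to 1.75 CPM in naive WT and at 2.43, 2.06 and 3.93 CPM in WT at 7 d. It stood at 1.11 to 2.33 CPM in naive KO and at 12.1, 20.2 and 6.65 CPM in KO at 7 d. All 3 KO libraries at 7 d were above every other library, and the interaction was 1.997 ± 0.50 (SE). It was 1.53 without ko_422_7d, its highest library. Snhg14, a long transcript of the imprinted Prader-Willi region, stood at 52.0, 44.4 and 38.6 CPM in KO at 7 d and at 31.3 to 33.7 CPM in WT at 7 d, with naive levels of 22.1 to 26.5 CPM in KO and 27.97 to 32.7 CPM in WT. The 4 groups of Snhg14 did not overlap except for WT before and after injury, and the interaction was 0.74 ± 0.19. Prpf3, a splicing factor gene, was at 0.62 ± 0.16. Depdc7 was at 1.21 ± 0.31, with 2.87 to 3.23 CPM in WT at 7 d and 4.77 to 9.22 CPM in the other 11 libraries. Its WT libraries at 7 d thus lay below all others.

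The negative interactions with the smallest unadjusted p were those of Agbl2, Cntn5, Pcdh11x, Hspa12b and Gpr83. Cntn5, the gene of the adhesion molecule contactin 5, stood at 1.15 to 2.39 CPM in naive WT and at 2.35, 4.91 and 1.62 CPM in WT at 7 d. In KO it stood at 2.39 to 2.77 CPM in naive mice and at 1.01, 0.794 and 0.860 CPM at 7 d. The KO libraries at 7 d were below all others, and the interaction was -2.12 ± 0.48 (SE), or -1.54 without wt_410_7d. Pcdh11x, a protocadherin gene, stood at 1.67 to 2.03 CPM in KO at 7 d and at 3.16 to 6.59 CPM in the other 3 groups, with an interaction of -1.36 ± 0.32. Hspa12b, the gene of a heat shock protein of endothelial cells, stood at 19.3 to 25.6 CPM in KO at 7 d and at 26.7 to 36.1 CPM elsewhere, with an interaction of -0.69 ± 0.17. For both, the KO libraries at 7 d did not overlap the rest. Gpr83, a receptor gene, was at -1.70 ± 0.44 and at -1.24 without wt_410_7d. Agbl2, a tubulin carboxypeptidase gene, was at -3.10 ± 0.68 from low levels of 0.144 to 1.69 CPM. The mean of both responses was called lower for Pcdh11x and Hspa12b and higher for Ctla2a and Snhg14, although Hspa12b stood at 29.4 CPM in naive WT and 31.4 CPM in WT at 7 d on average.

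The nuclear import machinery itself did not show a called interaction. Of the importin alpha genes other than Kpna4, Kpna1 had an interaction of 0.00 ± 0.16, Kpna3 of 0.13 ± 0.18, Kpna6 of -0.20 ± 0.21 and Kpna2 of 0.67 ± 0.35 (SE), and none of the 5 tested, Kpna4 included, was called for the mean response. The interval excluded a 2-fold difference for Kpna1, Kpna3 and Kpna6, but not for Kpna2, at -0.07 to 1.403. For the importin beta family and the exportins, which carry cargo into and out of the nucleus, the interval excluded a 2-fold difference for all 19 genes tested. Their interactions ran from -0.21 to 0.18, and 3 of them, such as the exportin gene Xpo7, fell slightly in the mean response (10.3% of all genes fell).

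Genes of AP-1, whose subunit cFOS importin alpha3 carries, were tested with the related Maf factors. Of these 19 genes, 7 rose and 1 fell in the mean response, against 10.8% and 10.3% of all genes, and 0 were called for the interaction, against 0.0105% of all genes. The median response was 0.28 in WT and 0.42 in KO, and the median interaction was 0.03 against 0.00 over all genes tested. Fos, the gene of cFOS, stood at 5.39, 4.37, 6.77 and 4.62 CPM in naive WT and at 4.85, 5.05 and 8.39 CPM in WT at 7 d. It stood at 2.83, 5.31, 7.07 and 5.63 CPM in naive KO and at 7.35, 7.23 and 4.85 CPM in KO at 7 d. All 4 groups of Fos overlapped, and the interaction was 0.11 ± 0.48 (SE, 95% interval -0.89 to 1.12).

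Jun, the main partner of FOS proteins, rose from 104, 112, 140 and 121 CPM in naive WT to 223, 238 and 303 CPM. In KO it rose from 103, 117, 98.9 and 114 CPM to 326, 249 and 207 CPM. Naive and 7 d libraries did not overlap in either genotype, the 7 d libraries of both genotypes did, and the interaction was 0.17 ± 0.21 (SE, 95% interval -0.26 to 0.61). Fosl2, a FOS relative, was at -0.03 ± 0.41. Fosl1, another FOS relative, stood at 3.09, 2.13 and 3.54 CPM in WT at 7 d and at 5.91, 4.53 and 4.22 CPM in KO at 7 d, with naive levels of 0.797 to 1.80 CPM. Its KO libraries at 7 d lay above its WT libraries, and its interaction was 0.97 ± 0.40 (SE, unadjusted p = 0.0279, adjusted p = 0.948 by edgeR). Fosl1 was the only member of the list with an unadjusted p under 0.05, where 1.99% of all genes had a positive interaction at that level.

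Atf3, a stress factor of injured neurons that also dimerizes with JUN, stood at 11.5, 19.8, 22.8 and 7.76 CPM in naive WT and at 214, 233 and 444 CPM in WT at 7 d. The KO values were 8.55, 43.3, 10.4 and 5.58 CPM in naive mice and at 439, 412 and 226 CPM at 7 d. The second naive KO value belonged to ko_39 and was the highest naive level. The interaction was 0.14 ± 0.82 (SE) with ko_39 and 1.20 without it, was -0.15 without ko_95, and was called in neither fit (adjusted p = 0.983 by edgeR without it).

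**Figure D3:**
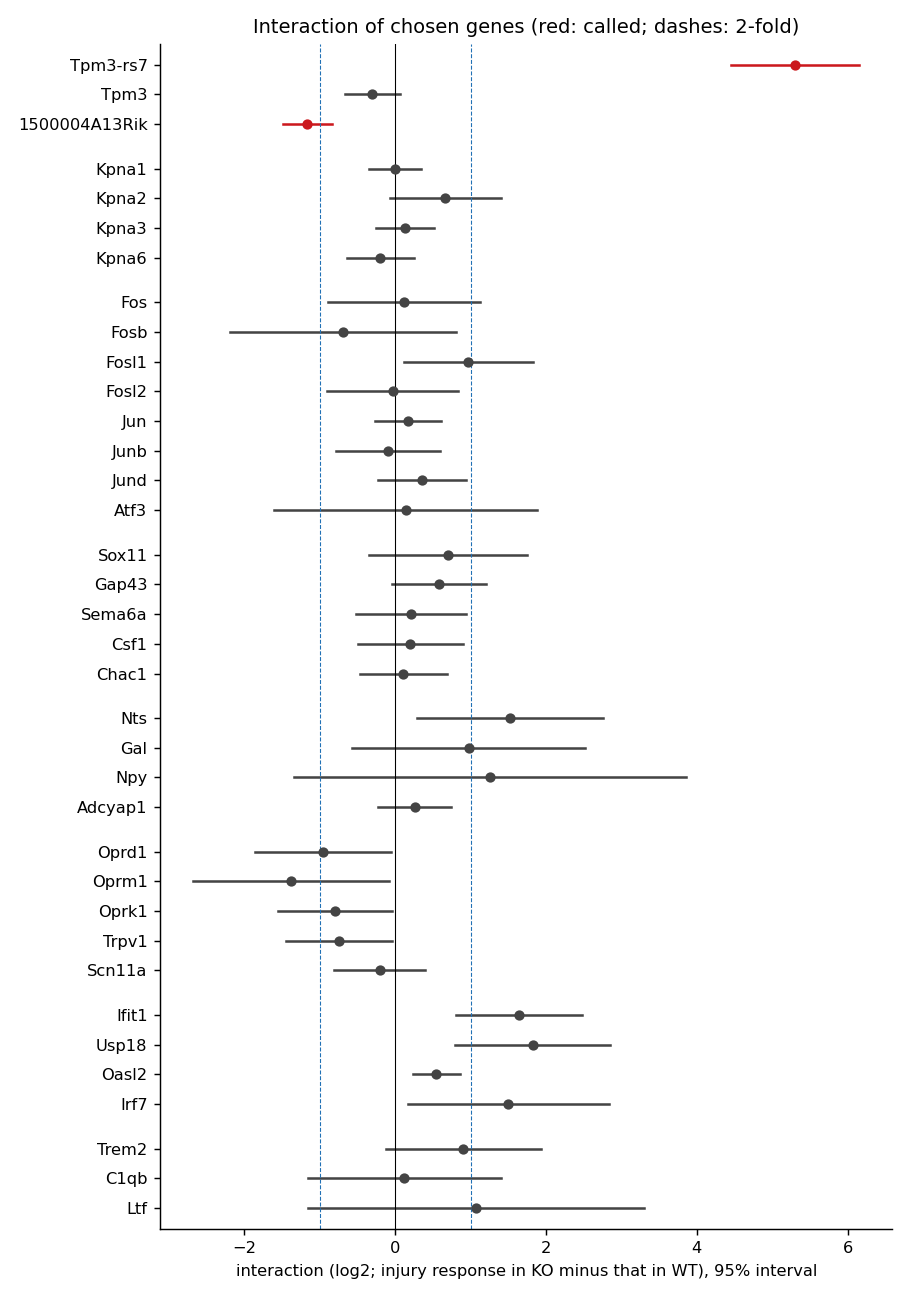
Interaction of chosen genes on the log2 scale, as the injury response in KO minus that in WT (horizontal axis); points are estimates, lines 95% intervals, red marks the 2 called genes and dashed lines a 2-fold difference. The intervals of Kpna1, Kpna3 and Jun lie between the dashed lines, while those of Atf3, Npy and Ltf are wide.

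The AP-1 motif was sought in promoters, taken as the 250 bases before and 50 bases after the annotated start in RefSeq on GRCm38.p6. TGANTCA is its own reverse complement, so 1 search covers both strands. It occurred in 7.81% of 32851 promoters. Promoters were found for 13128 of the genes tested. It was present for 141 of 1446 risers of the mean response (9.75%), for 7.56% of fallers and for 6.30% of genes not called, and for 6.82% of all tested genes with a promoter. Risers with the motif had a median response of 0.75 in WT and 0.96 in KO, and a median interaction of 0.22. Risers without it had 0.48 in WT, 0.70 in KO and an interaction of 0.18. A match is a description of the sequence and not a bound site. Among named genes that hold the motif and rose in the mean response, Nts, Sh2d1b2 and Trem2 had the smallest p of that response by edgeR. Having the motif was thus a condition of the choice. The promoters of Nts, a neuropeptide gene, and Trem2, a macrophage gene, are shown with the motif in capitals. They lie at chr10:102490369-102490668 on the minus strand and chr17:48346151-48346450 on the plus strand.
Nts: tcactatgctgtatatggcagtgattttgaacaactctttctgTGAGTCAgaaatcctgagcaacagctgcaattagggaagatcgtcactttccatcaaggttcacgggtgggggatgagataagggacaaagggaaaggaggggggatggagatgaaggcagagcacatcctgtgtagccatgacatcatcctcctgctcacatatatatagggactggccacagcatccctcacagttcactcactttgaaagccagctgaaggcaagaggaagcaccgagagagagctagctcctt
Trem2: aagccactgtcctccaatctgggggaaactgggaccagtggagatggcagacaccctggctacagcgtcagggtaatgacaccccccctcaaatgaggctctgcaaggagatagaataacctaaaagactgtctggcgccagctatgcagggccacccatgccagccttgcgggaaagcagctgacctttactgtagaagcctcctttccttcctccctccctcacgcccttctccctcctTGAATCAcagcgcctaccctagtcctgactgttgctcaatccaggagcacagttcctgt

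Neuropeptides are signalling peptides of sensory neurons. Of their 18 genes, 8 rose and 0 fell in the mean response, where 10.8% of all genes rose and 10.3% fell. The median response was 0.97 in WT and 0.53 in KO, while the median of the interactions was 0.59, so the medians of the responses and of their differences had different order. The median interaction was 0.20 without ko_422_7d and 0.15 in limma-voom with a weight for each library. Nts, the gene of neurotensin, stood at 15.5, 14.1, 19.7 and 12.5 CPM in naive WT and at 94.6, 62.7 and 113 CPM in WT at 7 d. Levels in KO were 7.93, 19.8, 10.2 and 5.21 CPM in naive mice and at 233, 225 and 86.5 CPM at 7 d. The first and second KO libraries at 7 d lay above WT and the third, ko_426_7d, lay among them. The WT response was 2.55, the KO response 4.07, and the interaction 1.53 ± 0.58 (SE, 95% interval 0.29 to 2.76, unadjusted p = 0.0184, adjusted p = 0.948 by edgeR).

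Npy, the gene of neuropeptide Y, rose in both genotypes. It stood at 2.09, 4.96, 3.90 and 2.39 CPM in naive WT and at 119, 62.7 and 117 CPM in WT at 7 d. KO libraries held 1.23, 16.5, 1.12 and 0.415 CPM in naive mice and at 257, 611 and 168 CPM at 7 d. All 3 KO libraries at 7 d were above all WT libraries, and naive ko_39 was above all other naive libraries. The interaction was 1.26 ± 1.21 (SE) and became 3.66 without ko_39 and 0.55 without ko_422_7d. The adjusted p by edgeR was at least 0.601 in every fit tried. Gal, the gene of galanin, stood at 146, 180 and 222 CPM in WT at 7 d and at 327, 813 and 206 CPM in KO at 7 d, so 1 KO library lay within the WT range. Its interaction was 0.97 ± 0.73, and it was 0.22 without ko_422_7d and 1.52 without ko_39. Adcyap1, the gene of the peptide PACAP, was at 0.26 ± 0.23, and its interval of -0.22 to 0.74 excluded a 2-fold difference.

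Transcription factors of axon regeneration, which switch injured neurons to growth, were tested with axon regrowth effectors. Of 18 regeneration transcription factors, 14 rose and 0 fell in the mean response, against 10.8% and 10.3% of all genes. The median response was 0.75 in WT and 1.01 in KO, and the median interaction was 0.08. That median ran from -0.05 without wt_409_7d to 0.25 without wt_416_7d. Sox11, a factor needed for axon regrowth, stood at 54.2, 70.7 and 117 CPM in WT at 7 d and at 132, 144 and 73.3 CPM in KO at 7 d. These ranges overlapped, and the interaction was 0.70 ± 0.49 (SE). Smad1, a mediator of BMP signals, was at 0.16 ± 0.19.

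Of 38 axon regrowth effectors, 31 rose and 1 fell, where 10.8% of all genes rose and 10.3% fell. The median response was 1.13 in WT and 1.43 in KO. The median interaction was 0.25, positive for 29 of 38 genes, against 0.00 and 9499 of 19010 over all genes. It ranged from 0.07 without ko_420__7d to 0.46 without wt_416_7d. Gap43, a growth cone protein gene, stood at 570, 583.5 and 741 CPM in WT at 7 d and at 766, 1189 and 501 CPM in KO at 7 d. The KO libraries thus spanned the WT range, and the interaction of 0.58 ± 0.30 (SE) became 0.21 without ko_422_7d. Sema6a, a semaphorin gene, was at 0.21 ± 0.34 with a response of 2.82 in WT and 3.04 in KO, and Stmn4, a regulator of microtubules, was at 0.67 ± 0.39. Sprr1a, a protein gene linked to axon growth, stood at 2.39, 19.5, 22.8 and 3.24 CPM in naive WT and at 647, 669 and 1554 CPM in WT at 7 d. The levels in KO were 7.84, 112, 12.3 and 0.277 CPM in naive mice and at 1696, 3216 and 1085 CPM at 7 d. The levels at 7 d overlapped between genotypes, and the naive level of ko_39 again stood above the rest. The interaction of Sprr1a was -0.40 ± 1.60 (SE). It turned to 1.90 without ko_39 and to 0.14 without wt_416_7d, so its direction rested on single libraries. It was called in neither fit (adjusted p = 0.983 by edgeR without ko_39).

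Receptors and ion channels set how strongly sensory neurons respond to a stimulus. Of 18 genes of inhibitory receptors, namely those for opioids, cannabinoids and GABA, 6 fell and 3 rose in the mean response. Among all genes 10.3% fell and 10.8% rose. The median response of the receptor genes was -0.04 in WT and -0.64 in KO. The median interaction was -0.26 and positive for 3 of 18 genes. It was -0.12 without ko_422_7d, -0.12 without wt_410_7d and -0.46 without ko_426_7d. Oprd1, the delta opioid receptor gene, stood at 10.9, 16.2, 15.9 and 16.0 CPM in naive WT and at 9.34, 12.3 and 7.01 CPM in WT at 7 d. KO libraries stood at 17.0, 13.9, 10.8 and 10.98 CPM in naive mice and at 4.76, 3.02 and 5.47 CPM at 7 d. Its KO libraries at 7 d were below all others, and the interaction was -0.95 ± 0.43 (SE, unadjusted p = 0.0401, adjusted p = 0.948 by edgeR). Oprm1, the mu opioid receptor gene and a target of morphine, stood at 6.18, 15.3 and 9.93 CPM in WT at 7 d and at 5.41, 1.11 and 5.32 CPM in KO at 7 d, so the 7 d groups did not overlap. Its naive levels were 7.78 to 13.6 CPM in WT and 5.12 to 11.6 CPM in KO. Its interaction was -1.38 ± 0.61, or -0.94 without ko_422_7d and -0.61 without ko_39, ko_40 and ko_422_7d. Oprk1, the kappa opioid receptor gene, was at -0.79 ± 0.36 and Gabra3, a GABA receptor subunit gene, at -0.88 ± 0.33, or -0.54 without wt_410_7d. An unadjusted p under 0.05 was reached by 4 genes of this list with a negative interaction, against 1.71% of all genes, and by 1 with a positive one, against 1.99%. Oprm1, Oprk1 and Gabra3 were named after their values were seen.

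Of 13 voltage-gated sodium channel genes, which carry the action potential, 5 fell and 0 rose, where 10.3% of all genes fell and 10.8% rose. The median response was -0.14 in WT and -0.62 in KO. The median interaction was -0.25 and was positive for 2 genes, and Scn11a, a channel of pain fibres, was at -0.20 ± 0.29 (SE). For 9 of the 13 the interval excluded a 2-fold difference. Of 30 potassium channel genes, 10 fell and 5 rose in the mean response, where 10.3% of all genes fell and 10.8% rose, with a median interaction of -0.18. These medians moved to -0.09 for sodium and -0.05 for potassium channels without ko_422_7d, and to -0.07 and -0.09 without wt_410_7d. Without ko_426_7d they were -0.43 and -0.37. Of 17 calcium and HCN channel genes, 2 rose and 2 fell, near the 10.8% and 10.3% of all genes. Their median interaction was -0.18, or -0.03 without ko_422_7d. Trpv1, the heat and capsaicin channel gene, was at -0.75 ± 0.33, or -0.24 without wt_410_7d, and was named after its values were seen.

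Genes of macrophages and of the signal that draws them in were tested next. Csf1, a macrophage growth factor gene that injured neurons express, rose to 94.2, 101 and 196 CPM in WT at 7 d and 219, 141 and 127 CPM in KO at 7 d, from naive levels of 23.8 to 35.9 CPM. The 7 d libraries of both genotypes overlapped, and the interaction was 0.20 ± 0.33 (SE, 95% interval -0.49 to 0.90). Of 26 genes of the CSF1 axis and macrophages, 14 rose and 1 fell, against 10.8% and 10.3% of all genes. The median response was 0.73 in WT and 1.23 in KO. The median interaction was 0.19, positive for 22 of 26 genes, and became 0.04 without ko_422_7d and 0.77 without wt_416_7d. Trem2, a receptor gene of macrophages, stood at 2.43, 1.78 and 3.46 CPM in WT at 7 d and at 5.84, 9.85 and 4.46 CPM in KO at 7 d. The KO libraries were higher than the WT ones, and the interaction was 0.90 ± 0.49, or 0.52 without ko_422_7d. That was near the highest of the list, 0.95. C1qb, another macrophage gene, overlapped between genotypes at 7 d, at 27.6 to 56.2 CPM in WT and 29.5 to 95.6 CPM in KO. Its interaction ran from -0.43 to 0.63 with single libraries left out. The summed level of all 26 genes was 2510 to 3018 CPM in naive WT, 2445 to 3564 CPM in WT at 7 d, 2408 to 4084 CPM in naive KO and 3544 to 3902 CPM in KO at 7 d. None of the 26 was at 0 in any group, and the part of macrophage number in these values was not tested.

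Interferon-stimulated genes, which cells switch on in response to interferon, had interactions of mostly 1 sign. Of 27 genes, 2 rose and 4 fell in the mean response, near the 10.8% and 10.3% of all genes. The median response was -0.27 in WT and 0.41 in KO, and the median interaction was 0.51, positive for 26 genes. Of the 27, 8 had a positive interaction with an unadjusted p under 0.05, where 1.99% of all genes did, and 0 were called. The median interaction ran from 0.31 without ko_422_7d to 0.71 without ko_40.

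Ifit1, an antiviral gene, stood at 38.6, 25.9, 30.4 and 27.1 CPM in naive WT and at 19.6, 19.5 and 11.2 CPM in WT at 7 d. In KO it stood at 11.5, 12.3, 11.96 and 10.6 CPM in naive mice and at 15.8, 32.3 and 11.7 CPM at 7 d. Naive WT lay above naive KO without overlap, and at 7 d the genotypes overlapped. The interaction was 1.64 ± 0.40 (SE, unadjusted p = 0.000677, adjusted p = 0.948 by edgeR), and 1.11 without ko_422_7d. Usp18, a brake on interferon signalling, stood at 3.77 to 6.93 CPM in naive WT, 0.915 to 2.18 CPM in naive KO, 1.99 to 2.72 CPM in WT at 7 d and 1.66 to 3.81 CPM in KO at 7 d. The naive groups did not overlap, the 7 d groups did, and the interaction was 1.82 ± 0.49. Oasl2, another antiviral gene, stood at 60.8 to 74.3 CPM in naive WT, at 40.1 to 50.3 CPM in naive KO and at 54.2 to 63.2 CPM at 7 d in both genotypes. Its naive groups did not overlap either, and its interaction was 0.54 ± 0.15. Irf7, a factor that drives interferon genes, was at 1.499 ± 0.63 and at 0.43 without ko_422_7d, which held 27.95 CPM against 4.48 to 9.08 CPM in the other 7 d libraries. Usp18, Oasl2 and Irf7 were named after their values were seen. Other interferon-stimulated genes did not keep a sign when single libraries were left out. The interaction then ran from -0.06 to 0.21 for Ifit2, from -0.15 to 0.23 for Ifih1 and from -0.27 to 0.65 for Oas2. Naive WT and naive KO overlapped for Irf7, Ifit2, Ifih1 and Oas2.

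Neutrophil markers were called lower in the mean response for 12 of 13 genes, against 10.3% of all genes. Within WT and within KO 4 each were called lower, where 0.673% and 5.89% of all genes were. The median response of the markers was -2.70 in WT and -2.06 in KO. Their summed level was 276 to 1323 CPM in naive WT, 15.7 to 151 CPM in WT at 7 d, 296 to 903 CPM in naive KO and 50.1 to 170 CPM in KO at 7 d, and no marker was at 0 in a group. The median interaction of 0.76 ran from 0.16 to 1.85 when 1 library was left out, and for none of the 13 was a 2-fold difference outside the interval. Ltf, the lactoferrin gene, was at 1.07 ± 1.04 (SE).

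Stress response genes were measured closely enough to bound most differences. Of 24 genes of the integrated stress and unfolded protein response, 16 rose and 0 fell, against 10.8% and 10.3% of all genes. The median response was 0.45 in WT and 0.41 in KO. The median interaction was 0.06, and for 20 of the 24 the interval excluded a 2-fold difference. Chac1, a glutathione-degrading enzyme gene, rose to 21.7, 24.0 and 35.8 CPM in WT at 7 d and 23.9, 38.5 and 25.9 CPM in KO at 7 d, from 5.83 to 8.14 CPM in naive mice. Its 7 d groups overlapped, and its interaction was 0.11 ± 0.28 (SE, 95% interval -0.47 to 0.69). For the 18 cholesterol synthesis genes the interval excluded a 2-fold difference in each. Myelinating Schwann cell genes had a median response of -0.82 in WT and -0.87 in KO. The summed level of the 14 myelin markers was 4754 to 12205 CPM in naive WT and 5685 to 10683 CPM in naive KO, against 2919 to 5873 CPM in WT and 3569 to 5186 CPM in KO at 7 d.

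Cytosolic ribosomal protein genes, which encode parts of the translation machinery, had a median interaction of 0.34, positive for 27 of 28 genes. It was -0.17 without ko_422_7d, -0.14 without ko_39, ko_40 and ko_422_7d and -0.06 in limma-voom with a weight for each library, so its direction rested on ko_422_7d. Genes of the mitochondrial genome had a median interaction of -0.88 over 8 genes, and -0.34 without ko_40, the library with the highest mitochondrial share. None of these genes was called for the interaction.

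**Figure D4:**
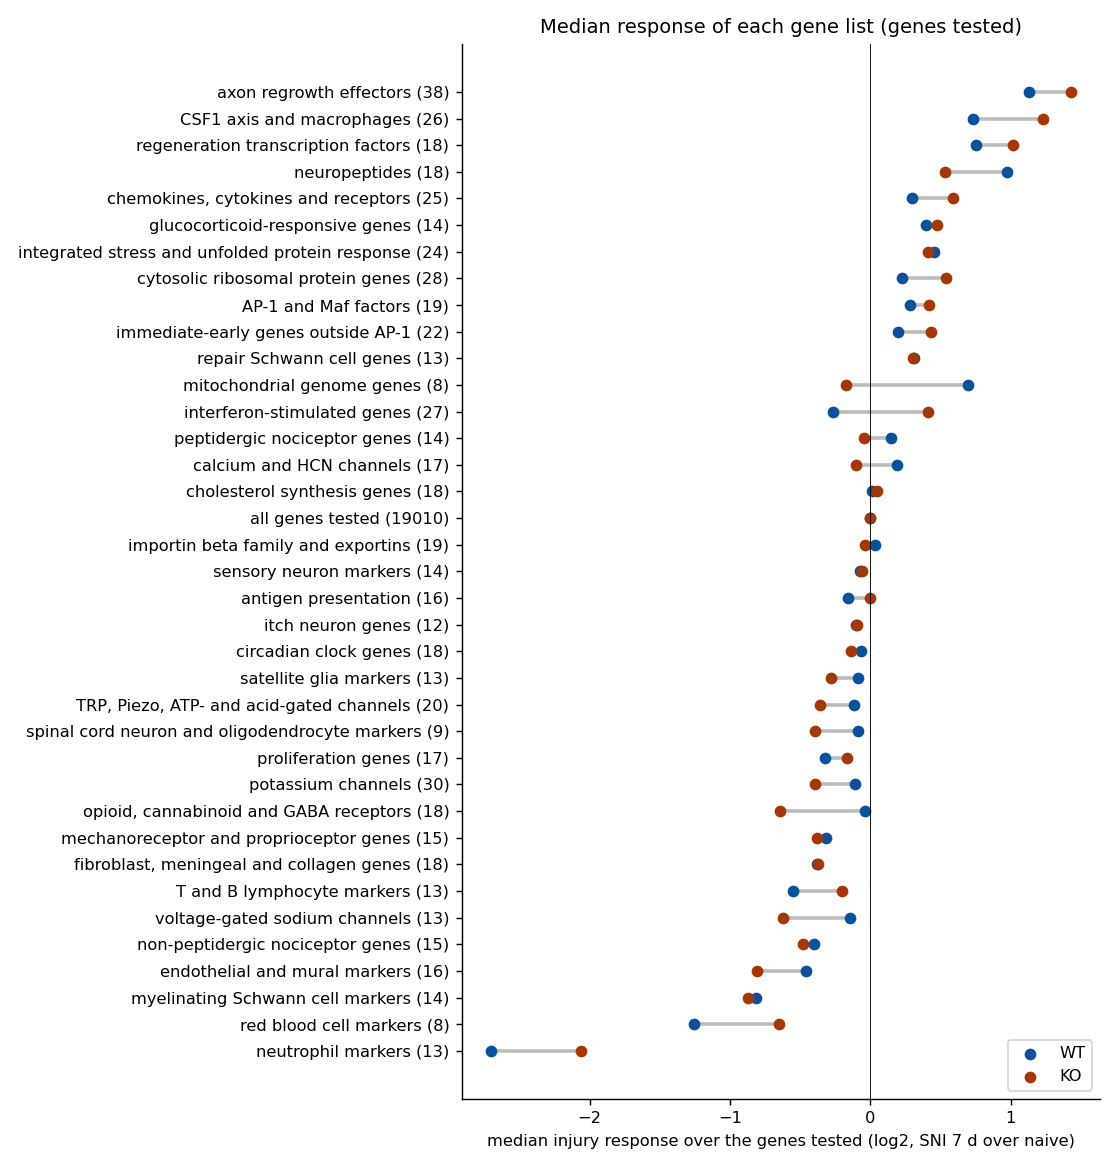
Median injury response of each gene list with at least 8 genes tested, as the log2 change from naive to 7 d (horizontal axis), in WT and KO; numbers in brackets are genes tested and grey bars join the genotypes. Both genotypes lie on the same side of 0 for the lists with the largest responses, such as the axon regrowth effectors at 1.13 and 1.43, and on opposite sides for interferon-stimulated genes, at -0.27 and 0.41.

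The size of the whole injury response was compared by a score, the mean centred log2 level of the 4013 genes called for the mean response, with the sign of fallers turned. It was -0.409, -0.405, -0.296 and -0.398 in naive WT and 0.232, 0.240 and 0.442 in WT at 7 d. In KO it was -0.447, -0.341, -0.383 and -0.442 in naive mice and 0.489, 0.593 and 0.345 at 7 d. Naive libraries of both genotypes overlapped, and so did 7 d libraries, in that wt_416_7d lay above ko_426_7d. The score rose by 0.682 in WT and by 0.879 in KO, and the difference was 0.197 with an SE of 0.106. Of the 4013 genes, 3010 (75.0%) had the larger response in KO, and the median interaction signed by the direction of the response was 0.17. It was 0.19 over risers and 0.16 over fallers. The value ran from 0.0879 without wt_409_7d to 0.306 without ko_426_7d. These genes were chosen in the same libraries, so the values are a description with no test. Over the 604 genes called in WT (3.18%, 2.5% higher and 0.673% lower) the signed median was 0.0848 and 59.3% of genes were larger in KO. Over the 2566 called in KO (13.5%, 7.61% higher and 5.89% lower) it was 0.321 and 91.4%. Genes chosen for a large response in KO tend to have a larger response in KO by that choice, and the same holds for WT. The 91.4% and 59.3% therefore cannot tell which response was larger. The counts called in each genotype compare unequal spreads and do not test the interaction. Of the 4013 genes, 251 (6.25%) had an unadjusted p under 0.05 for the interaction, against 3.7% of all genes. These were positive for 117 risers and negative for 4, and negative for 115 fallers and positive for 15.

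**Figure D5:**
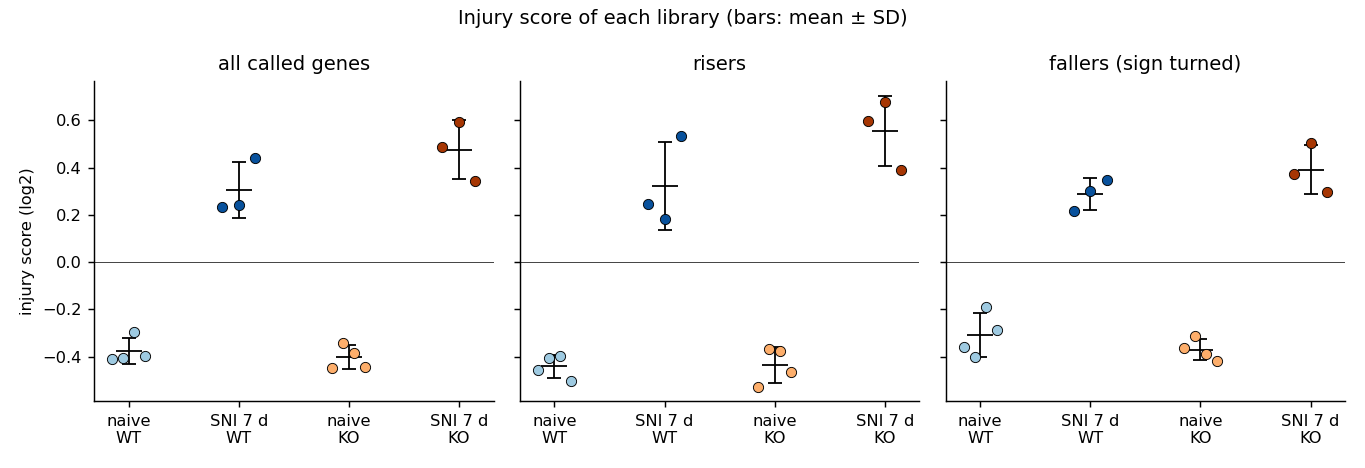
Injury score of each of the 14 libraries on the log2 scale (vertical axis), over all 4013 genes called for the mean response, over risers and over fallers with the sign turned; points are libraries and bars the mean ± SD. The 7 d libraries of WT, at 0.232 to 0.442, and of KO, at 0.345 to 0.593, overlap over all genes.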

How the data were processed

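STAR, HTSeq 0.6.1p1, bcl2fastq 2.17.1.14, cutadapt and DESeq2 1.10.1 are named in the submitters' processing notes, which give GRCm38 as build. Neither the release of the annotation nor the use of strand is stated there, so overlapping genes and near copies are uncertain. The deposited file holds raw counts, whole numbers, of reads in each of 21288 genes. The test was edgeR's (4.0.16, R 4.3.3) robust quasi-likelihood F test after scaling by trimmed means. Genes passed filterByExpr with at least 10 counts, and 15 in total. One fit held 1 mean per group over all 18 libraries. Adjusted p is Benjamini-Hochberg over 19010 genes, and genes were called under 0.05. The SE is the log2 change divided by the root of F. CPM are counts over scaled library sizes. DESeq2 1.42.0, limma-voom (limma 3.58.1), other scaling, no filter, 14 libraries, a gene-length correction and left-out libraries were alternatives. The interaction step was run on simulated counts as a check of the code. These held no library that stood apart and no trend with exon length, so the check does not cover such features. Gene positions and exons came from GENCODE on GRCm38, and promoters from RefSeq.

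The comparison and the 38 gene lists (635 members, 614 tested) were chosen with earlier results of these data known. Genes named were Kpna4, Fos, called genes, the 5 smallest unadjusted p in each direction among genes with at least 1 CPM, the 6 largest separated rises and falls, up to 3 of each list with 3 or more called members, and the importin alpha, AP-1 and tropomyosin members. The text names a part of these. Groups came from the labels, and all columns were used as the labels name them.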

Additional observations from a re-analysis of the deposited data

Results flagged for a closer look

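The interactions of Tpm3-rs7, at 5.30 on the log2 scale, and of 1500004A13Rik, at -1.16, were tested differences between the injury responses of the genotypes. Samples far from the rest of their group were sought in the 72 sets of 4 naive libraries, and 11 were found, where chance alone gives about 1 in 20. In naive ko_39, Atf3 stood at 43.3 CPM against at most 10.4 in the other naive KO libraries, Npy at 16.5 CPM against at most 1.23, and Sprr1a at 112 CPM against at most 12.3. Gpr83 stood at 5.35 CPM in the same library against 6.71 to 6.86. In naive ko_40, Snhg14 stood at 22.1 CPM against 25.8 to 26.5, and the mitochondrial share at 12.3% of counts against 3.73% to 4.79%. In naive wt_48, Oprm1 stood at 13.6 CPM against 7.78 to 8.40, and the injury score at -0.296 against -0.409 to -0.398. In naive wt_28, Oprd1 stood at 10.9 CPM against 15.9 to 16.2, and the slope on exon length at 0.0384 against 0.225 to 0.241. In naive wt_67 the mitochondrial share was 3.49% against 4.25% to 4.39%. The part of these libraries in the interactions was measured only by leaving each out.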

How the results depend on the processing

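The count of genes called for the interaction was 2 with DESeq2, other scaling, no filter, the 14 libraries alone, limma-voom and each of 14 left-out libraries, and 1 when gene length was corrected for. It was also 1 without ko_39, ko_40 and ko_422_7d. In both, 1500004A13Rik lost its call; the cause was not tested. The adjusted p of 1500004A13Rik ran from 6.00e-10 (DESeq2) to 0.106. Leaving out single libraries gave 2 calls each time, while genes with an unadjusted p under 0.05 ran from 550 without wt_28 to 1888 without ko_426_7d. The count called in WT was 604, and 1081 with DESeq2, 944 without ko_39, ko_40 and ko_422_7d, and 218 to 974 with 1 library left out: 357 without wt_28, 384 without wt_44, 335 without wt_67, 218 without wt_416_7d and 974 without ko_422_7d. That in KO was 2566, and 1252 without ko_39, ko_40 and ko_422_7d, and 1621 to 3394 with 1 library left out, with 1621 without ko_35 and 1690 without ko_39. The count called for the mean response stayed between 3079 and 4927. The signed median interaction of 0.17 ran from 0.0879 to 0.306. Of the other values of named genes, 2975 stayed called or, where called in neither fit, moved by at most the SE of the main fit. A further 90 moved by more than that SE, and 2 lost a call. Since the SE is that of each gene, a gene with a wide SE could shift far and still count among the 2975. The sum of Tpm3 and Tpm3-rs7 was an alternative chosen after seeing the data. No paired analysis was possible because library numbers are not shared between groups. At 12565448 to 21585680 counts per library and 3 or 4 libraries a group, the median SE of 0.307 limits what can be seen.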
